A study of Rattus norvegicus with 12 samples.

Results

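The proteasome is the large protease that degrades proteins marked with ubiquitin. Its genes were taken as the array probes whose RefSeq accession maps to a rat symbol that starts with Psma, Psmb, Psmc, Psmd, Psme, Psmf or Psmg, or to *Pomp*, and that are in the deposited table of values. The gene table holds 103 such symbols, of which 48 have a probe on the array. The members were 47 genes with 50 probes among the 25848 probes of the deposited table, where the series as a whole has 11185 named genes. All 47 were well above background on all 12 arrays and were tested, so the filter on dim probes removed none of them. *Psmc3ip* and *Psme3ip1* share the prefix, but encode partners of a subunit and of an activator, and are counted apart from the other 45 genes. The testis subunit *Psma8* has a probe that is well above background on 0 arrays and is not in the deposited table, which is also true of a further probe for *Psmg4*, above background on 1 array. *Psmb11*, *Psmg1*, *Psmg3* and 52 symbols of pseudogenes or like loci have no probe.

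Rat L6 cells are a skeletal muscle line whose myoblasts fuse into myotubes. They were profiled on Agilent 1-colour arrays to see how GR24, pinosylvin and resveratrol change gene expression. Per the labels, the cells had 6 days of differentiation (the paper states a longer time) and were then treated for 24 h in 3 experiments that came from 1 batch of cells, with 1 array for each of 4 groups in each experiment. The control received DMSO alone, which every group received as the vehicle. The other groups received 60 µM GR24, a synthetic strigolactone analog, 60 µM pinosylvin or 60 µM resveratrol. Pinosylvin and resveratrol are stilbenes, and resveratrol is pinosylvin with an additional hydroxyl group. Each array had 58717 spots other than controls, of which 57.96% to 64.27% were well above background, and 0 were saturated. The number of arrays, 3 a group, limits the precision, and p-values measure the spread between experiments on 1 batch of cells. Signals are log2 values from which the 75th percentile over the probes of the same array was subtracted, in the order of experiments 1, 2 and 3. Differences are log2 differences between group means with the standard error (SE), and a gene is called higher or lower where the adjusted p is under 0.05.

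The core of the proteasome, the 20S particle, is a barrel whose outer rings of alpha subunits gate the entry and whose inner rings of beta subunits carry the active sites. The 19S particle caps the barrel. Its base unfolds the substrate with ATPases, and its lid and ubiquitin receptors bind the substrate and remove the ubiquitin. In skeletal muscle this system degrades much of the contractile protein during atrophy, and its genes are known to be induced together, by the transcription factor *Nfe2l1* when proteasome activity is low and by *Nfe2l2* (Nrf2) under electrophilic or oxidative stress.

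The labelled cell type was checked against marker genes. Of 10 myotube markers, 9 had a tested probe (*Mylpf* has none), and all 9 were measured above background in the control myotubes. Signals of *Myog*, the myogenin gene, were 5.24, 5.25 and 5.08 on the control arrays, -0.38, -1.05 and -0.50 with GR24, 6.01, 5.85 and 5.91 with pinosylvin and 4.72, 4.67 and 4.65 with resveratrol. After GR24, 7 of the 9 were lower, with a median difference of -1.82, and *Myog* (-5.83, adjusted p = 5.53e-10), *Acta1* (-3.88, adjusted p = 2.40e-10) and *Ckm* (-2.58, adjusted p = 9.64e-08) were among them. Over all tested probes, 25.5% were lower after GR24. The GR24 arrays were therefore measured on cells that carried the label of myotubes, but with far lower RNA of several defining myotube genes. On these arrays, fewer cells of a type and less RNA per cell cannot be told apart. With pinosylvin 2 of the 9 were higher (5 with the experiment as a block in the fit), with resveratrol 4 were lower (6 with the block), and the medians were 0.25 and -0.30. Over all tested probes, 8.28% were higher with pinosylvin (16.3% with the block) and 8.99% lower with resveratrol (13.8% with the block). The resveratrol calls of *Myog* and *Cav3* were lost without 8 and 7 of the 12 arrays left out in turn (adjusted p from 0.0504 to 0.108 and from 0.0532 to 0.130). Of the resveratrol calls, those of *Myog*, *Cav3* and *Myh3* were lost together without control replicate 2 (adjusted p of 0.108, 0.130 and 0.0615) and without resveratrol replicate 3 (0.0954, 0.128 and 0.0615), which left that of *Ckm*. Of 5 tested markers of undifferentiated myoblasts, GR24 left *Id2* (1.22) and *Hes1* (0.65) higher and *Myf5* (-0.88) lower. *Hes1* was also higher with pinosylvin (0.55, adjusted p = 0.0123) and with resveratrol (0.69, adjusted p = 0.00371). Pinosylvin left *Id1* (-0.77) and *Id2* (-0.335) lower. The latter call was lost without 4 of the 12 arrays left out in turn (adjusted p from 0.0635 to 0.0971). The 4 tested markers of cycling cells were lower in all 3 treated groups, with medians of -2.84 for GR24, -1.70 for pinosylvin and -0.92 for resveratrol. Of 4 immune cell markers, *Ptprc* and *Cd3e* were above background on 0 arrays, *Cd79a* has no probe, and *Cd68*, a lysosomal protein gene that is not restricted to immune cells, was higher with GR24 (2.67, adjusted p = 4.11e-07).

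After GR24, most proteasome genes were higher than in the control. Of the 45 genes, 32 were higher, 4 were lower and 9 were not called, with a median difference of 0.46 (a 1.38-fold median). Among all 24279 tested probes, 31.5% were higher and 25.5% were lower, with a median of 0.027, and among 10741 named genes with a tested probe 36.1% were higher and 26.7% lower, with a median of 0.078. The arrays of GR24 and control did not overlap for 34 genes that lay higher and 5 that lay lower with GR24, where 33.9% and 27.2% of the probes with a value on all 6 arrays did so. Measured against the mean of the control arrays, the median over the 45 genes was 0.03, 0.072 and -0.10 on the control arrays, 0.46, 0.53 and 0.36 with GR24, 0.14, 0.12 and -0.017 with pinosylvin, and 0.17, 0.18 and 0.062 with resveratrol. Thus each GR24 array lay above every other array, while the third experiment lay lowest within every group. The arrays lie on 2 slides, with experiments 1 and 2 on the first and experiment 3 on the second, and the median GR24 difference was 0.48 on the first slide and 0.43 on the second, with 37 and 35 of the 45 genes above 0. The medians of the myotube markers on the same GR24 arrays were -1.86, -1.73 and -1.87 and those of the cycling markers -2.79, -2.77 and -3.03, and their part in the result was not tested.

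**Figure D1:**
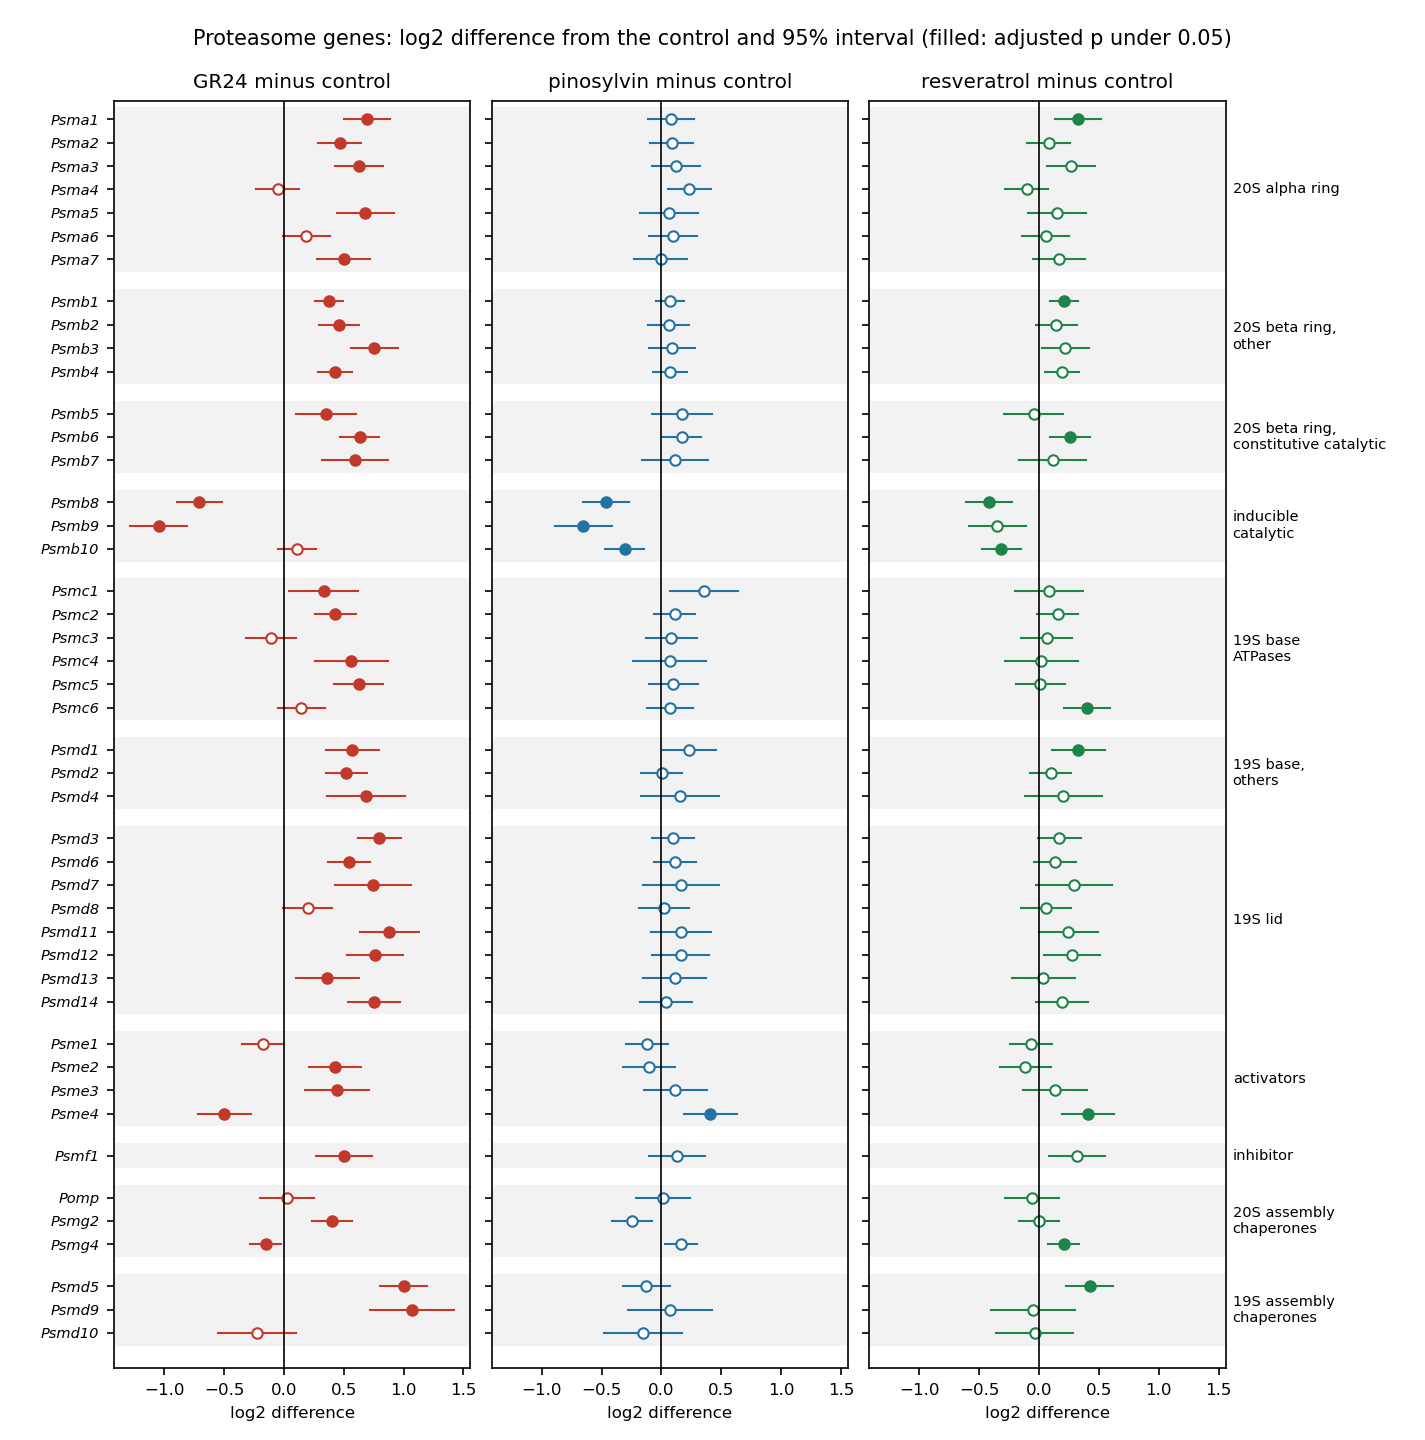
Log2 difference from the control (horizontal axis) for each of the 45 proteasome genes, grouped by subcomplex, after GR24, pinosylvin or resveratrol. Points are differences between group means of 3 arrays and lines are 95% confidence intervals, with filled points where the adjusted p was under 0.05. With GR24, 32 of the 45 points are filled to the right of 0 and 4 to the left.

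The alpha ring of the 20S core had 5 of 7 genes higher after GR24, with a median of 0.50. Signals of *Psma1*, 1 of the subunits that form this outer ring, were 4.85, 4.79 and 4.87 on the control arrays, 5.59, 5.63 and 5.38 with GR24, 5.01, 4.87 and 4.86 with pinosylvin and 5.09, 5.30 and 5.09 with resveratrol. All GR24 values lay above all control values, with a 1.62-fold difference, in log2 0.70 (SE 0.088, adjusted p = 5.87e-05). The signals of *Psma4*, also a ring subunit, were 5.02, 5.14 and 4.94 in the control myotubes, 5.01, 5.03 and 4.91 after GR24, 5.26, 5.36 and 5.19 after pinosylvin and 5.04, 4.92 and 4.83 after resveratrol. These GR24 and control values overlapped, and the difference of -0.053 (SE 0.082, adjusted p = 0.626) was not called. *Psma6*, the other gene that was not called, differed by 0.19 (SE 0.089, adjusted p = 0.0969), and with the experiment as a block its adjusted p was 0.0301. It is named here after its value was seen. The called genes other than *Psma1* ranged from 0.47 to 0.68.

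The beta subunits that shape the inner rings without an active site were all higher, 4 of 4, with a median of 0.44. Signals of *Psmb3*, which had the largest difference of them, were 5.06, 5.06 and 4.91 on the control arrays, 5.77, 5.87 and 5.65 with GR24, 5.17, 5.13 and 4.99 with pinosylvin and 5.26, 5.32 and 5.11 with resveratrol. The GR24 values lay 1.69-fold higher than the control and apart from it, in log2 0.76 (SE 0.087, adjusted p = 3.10e-05). For *Psmb1*, with the smallest difference, the signals were 4.38, 4.44 and 4.41 in the control myotubes, 4.76, 4.84 and 4.77 after GR24, 4.48, 4.46 and 4.50 after pinosylvin and 4.62, 4.59 and 4.63 after resveratrol. Here too GR24 and control did not overlap, and the difference was 0.38 (SE 0.053, adjusted p = 0.000125).

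The active sites of the constitutive core belong to *Psmb5* (chymotrypsin-like), *Psmb6* (caspase-like) and *Psmb7* (trypsin-like), and all 3 were higher after GR24. Signals of *Psmb5* were 5.08, 5.13 and 4.85 on the control arrays, 5.45, 5.46 and 5.20 with GR24, 5.28, 5.25 and 5.03 with pinosylvin and 5.02, 5.07 and 4.83 with resveratrol. The GR24 values lay above the control values in each experiment and did not overlap with them, with experiment 3 lowest in every group. The difference was 0.35 (SE 0.11, adjusted p = 0.0199), and the call was lost without GR24 replicate 1, without GR24 replicate 2 or without control replicate 3 (adjusted p from 0.0701 to 0.0761). Signals of *Psmb6* were 5.03, 5.09 and 4.93 in the control myotubes, 5.70, 5.71 and 5.53 after GR24, 5.24, 5.19 and 5.12 after pinosylvin and 5.29, 5.33 and 5.20 after resveratrol. All GR24 values lay above all others, a 1.55-fold difference from the control, in log2 0.63 (SE 0.075, adjusted p = 3.68e-05). Those of *Psmb7* were 3.76, 3.81 and 3.48 on the control arrays, 4.31, 4.44 and 4.08 with GR24, 3.92, 3.86 and 3.61 with pinosylvin and 3.87, 3.83 and 3.69 with resveratrol. The GR24 values did not overlap with the control, and the difference was 0.60 (SE 0.12, adjusted p = 0.00195).

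*Psmb8*, *Psmb9* and *Psmb10* encode the active sites that replace those of *Psmb5*, *Psmb6* and *Psmb7* in the immunoproteasome, a form known from immune cells and from interferon responses. Signals of *Psmb9* were 3.08, 3.06 and 2.78 on the control arrays, 1.93, 2.01 and 1.85 with GR24, 2.34, 2.42 and 2.21 with pinosylvin and 2.68, 2.75 and 2.44 with resveratrol. All treated arrays lay below all control arrays, GR24 lowest, and the GR24 difference was -1.05 (SE 0.11, adjusted p = 1.34e-05), that is 2.06-fold lower. For *Psmb8* the signals were 0.59, 0.70 and 0.41 in the control myotubes, -0.10, -0.097 and -0.21 after GR24, 0.14, 0.13 and 0.040 after pinosylvin and 0.23, 0.18 and 0.040 after resveratrol. The order of the group means was the same, and GR24 was 1.63-fold below the control, with -0.71 (SE 0.086, adjusted p = 4.60e-05). Signals of *Psmb10* were 3.77, 3.98 and 3.80 on the control arrays, 3.92, 4.00 and 3.96 with GR24, 3.53, 3.61 and 3.48 with pinosylvin and 3.60, 3.51 and 3.49 with resveratrol. GR24 overlapped with the control (0.11, SE 0.073, adjusted p = 0.236), and the other compounds lay below it. Thus 2 of the 3 inducible genes were lower and 1 was not called after GR24, with a median of -0.71, where the 3 constitutive ones were higher. Over all tested probes, 25.5% were lower and 31.5% higher after GR24.

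**Figure D2:**
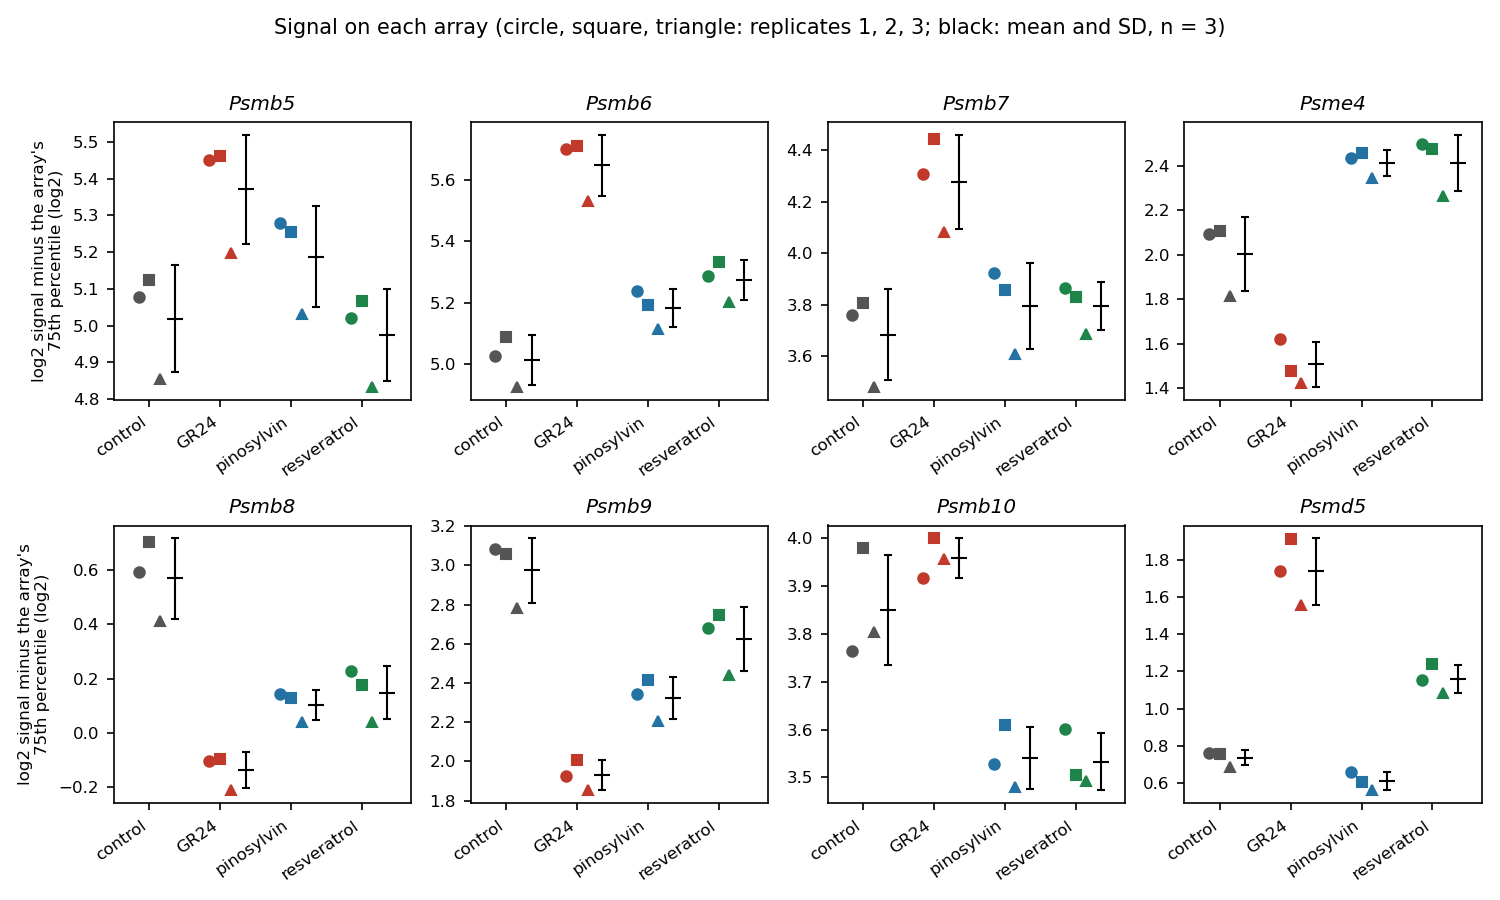
Signal on each array (log2 scale, relative to the 75th percentile over the probes of the same array, vertical axis, with a range of its own for each gene) for the constitutive active-site genes Psmb5, Psmb6 and Psmb7, the inducible ones Psmb8, Psmb9 and Psmb10, the activator Psme4 and the assembly chaperone Psmd5. Circles, squares and triangles are experiments 1, 2 and 3, and the black bars show the mean and SD of 3 arrays. The GR24 points lie above the control for Psmb5, Psmb6, Psmb7 and Psmd5 and below it for Psmb8, Psmb9 and Psme4.

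Of the 19S genes taken by the symbol prefix, 14 of 17 were higher after GR24, with a median of 0.57. *Adrm1* and *Sem1*, which also encode parts of the 19S particle, lack the prefix and are given below. In the base of the particle, 4 of the 6 ATPases were higher (median 0.38). Signals of the ATPase gene *Psmc5* were 6.21, 6.40 and 6.03 on the control arrays, 6.83, 6.90 and 6.79 with GR24, 6.31, 6.36 and 6.27 with pinosylvin and 6.29, 6.26 and 6.13 with resveratrol. GR24 lay above all other arrays, with a difference of 0.63 (SE 0.092, adjusted p = 0.000176). Signals of *Psmc3*, another ATPase of the ring, were 5.17, 5.11 and 4.96 in the control myotubes, 5.07, 5.02 and 4.82 after GR24, 5.24, 5.20 and 5.03 after pinosylvin and 5.15, 5.24 and 5.03 after resveratrol. These overlapped, and the difference of -0.11 (SE 0.095, adjusted p = 0.374) was not called, like that of *Psmc6* (0.15, SE 0.088, adjusted p = 0.186), which was called without GR24 replicate 3 (adjusted p = 0.0472). *Psmc1* (0.33, SE 0.13, adjusted p = 0.0483) was near the threshold. Its call was kept only without control replicate 1, control replicate 2, resveratrol replicate 1 or GR24 replicate 3, and the other 8 arrays left out in turn gave an adjusted p from 0.0540 to 0.169. Without control replicate 3 the difference itself was smaller, at 0.18. The base also holds the scaffold subunits *Psmd1* and *Psmd2* and the ubiquitin receptor *Psmd4*, and all 3 were higher (median 0.57). For *Psmd4* the signals were 4.72, 4.68 and 4.35 on the control arrays, 5.36, 5.36 and 5.07 with GR24, 4.91, 4.79 and 4.51 with pinosylvin and 4.88, 4.90 and 4.58 with resveratrol. They did not overlap between GR24 and control, and the difference was 0.68 (SE 0.15, adjusted p = 0.00219). For *Psmd2* they were 5.71, 5.88 and 5.80 in the control myotubes, 6.21, 6.47 and 6.28 after GR24, 5.85, 5.79 and 5.76 after pinosylvin and 5.90, 5.92 and 5.87 after resveratrol. Here as well GR24 lay apart from the control, with 0.52 (SE 0.077, adjusted p = 0.000195).

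In the lid, 7 of 8 genes with the prefix were higher after GR24 and the median was 0.75, a 1.68-fold difference. *Sem1*, a lid gene without the prefix, was lower (-0.67) and is given below. *Psmd11*, a lid subunit that contacts the base and the core, had signals of 1.96, 1.85 and 1.73 on the control arrays, 2.78, 2.87 and 2.53 with GR24, 2.09, 2.06 and 1.88 with pinosylvin and 2.11, 2.22 and 1.94 with resveratrol. The GR24 values lay above all other arrays, 1.84-fold higher than the control, in log2 0.88 (SE 0.11, adjusted p = 6.21e-05). *Psmd14*, the deubiquitinase that cuts ubiquitin from the substrate, differed by 0.76 (SE 0.097, adjusted p = 6.94e-05), and the other called lid genes with the prefix ranged from 0.36 to 0.80. The lowest of these was *Psmd13*, whose call was lost without GR24 replicate 1, without GR24 replicate 2 or without control replicate 3 (adjusted p from 0.0717 to 0.0894). These lid genes, and *Psmc1* of the base, were named after their values were seen. *Psmd8*, the lid gene with the smallest difference, had signals of 4.49, 4.50 and 4.27 in the control myotubes, 4.65, 4.63 and 4.58 after GR24, 4.52, 4.53 and 4.28 after pinosylvin and 4.58, 4.48 and 4.38 after resveratrol. GR24 and control did not overlap, yet the difference of 0.20 (SE 0.094, adjusted p = 0.0969) was not called, and with the experiment as a block its adjusted p was 0.0114.

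Activators open the core without the 19S particle, and after GR24 they differed among themselves. *Psme1* and *Psme2* encode the subunits of the PA28 ring that is induced by interferon. Signals of *Psme1* were 4.60, 4.53 and 4.59 on the control arrays, 4.41, 4.49 and 4.31 with GR24, 4.56, 4.45 and 4.37 with pinosylvin and 4.45, 4.63 and 4.45 with resveratrol. The GR24 values lay below the control values, but the difference of -0.17 (SE 0.078, adjusted p = 0.0852) was not called. Signals of *Psme2* were 5.19, 5.30 and 4.92 in the control myotubes, 5.60, 5.57 and 5.53 after GR24, 5.05, 5.08 and 4.96 after pinosylvin and 5.15, 4.97 and 4.94 after resveratrol. Here GR24 lay above the control without overlap, with 0.43 (SE 0.098, adjusted p = 0.00331). The nuclear PA28 gene *Psme3* had signals of 1.08, 0.94 and 0.88 on the control arrays, 1.45, 1.49 and 1.29 with GR24, 1.21, 1.17 and 0.87 with pinosylvin and 1.08, 1.29 and 0.93 with resveratrol. Here as well GR24 lay above the control without overlap, with 0.44 (SE 0.12, adjusted p = 0.00834). *Psme4* encodes PA200, a nuclear activator with a known role in the degradation of acetylated histones. Its signals were 2.09, 2.11 and 1.81 in the control myotubes, 1.62, 1.48 and 1.42 after GR24, 2.44, 2.46 and 2.35 after pinosylvin and 2.50, 2.48 and 2.27 after resveratrol. GR24 lay below and both stilbenes above the control, with no overlap, and GR24 was 1.41-fold lower, with -0.50 (SE 0.099, adjusted p = 0.00142). *Psmf1*, which encodes PI31, a protein that inhibits the 20S core in vitro, had signals of 3.00, 3.00 and 3.22 on the control arrays, 3.55, 3.74 and 3.44 with GR24, 3.25, 3.19 and 3.16 with pinosylvin and 3.24, 3.56 and 3.37 with resveratrol. Its GR24 values lay above the control values, with 0.50 (SE 0.11, adjusted p = 0.00189).

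Chaperones that assemble the particles were also mixed. *Psmg2*, part of the pair that starts the alpha ring, had signals of 0.71, 0.67 and 0.70 on the control arrays, 1.13, 1.21 and 0.93 with GR24, 0.49, 0.43 and 0.42 with pinosylvin and 0.67, 0.76 and 0.64 with resveratrol. It was higher after GR24, with no overlap and a difference of 0.40 (SE 0.075, adjusted p = 0.00102). For *Psmg4*, part of another chaperone pair of the ring, the signals were 3.48, 3.47 and 3.60 in the control myotubes, 3.37, 3.40 and 3.33 after GR24, 3.73, 3.63 and 3.68 after pinosylvin and 3.73, 3.71 and 3.72 after resveratrol. It was called lower after GR24, with -0.15 (SE 0.059, adjusted p = 0.0487), but the call was kept only without control replicate 2, and the other 11 arrays left out in turn gave an adjusted p from 0.0580 to 0.159. Signals of *Pomp*, the maturation factor of the beta rings, were 5.88, 6.23 and 5.92 on the control arrays, 6.08, 6.13 and 5.91 with GR24, 6.02, 6.06 and 5.99 with pinosylvin and 5.92, 6.06 and 5.88 with resveratrol. They overlapped in all groups, and GR24 differed by 0.026 (SE 0.10, adjusted p = 0.855). Among the chaperones of the 19S base, *Psmd9* had signals of 2.68, 2.71 and 2.35 in the control myotubes, 3.73, 3.77 and 3.45 after GR24, 2.75, 2.77 and 2.43 after pinosylvin and 2.59, 2.74 and 2.25 after resveratrol. This was the largest GR24 difference of the 45 genes, 2.10-fold, in log2 1.07 (SE 0.16, adjusted p = 0.000181). *Psmd5* had signals of 0.76, 0.76 and 0.69 on the control arrays, 1.74, 1.91 and 1.56 with GR24, 0.66, 0.61 and 0.56 with pinosylvin and 1.15, 1.24 and 1.09 with resveratrol. Its GR24 values lay 2.00-fold above the control, with 1.00 (SE 0.088, adjusted p = 4.29e-06), and resveratrol lay between them. *Psmd10*, which encodes gankyrin, had signals of 0.81, 0.84 and 1.11 in the control myotubes, 0.57, 0.60 and 0.91 after GR24, 0.72, 0.57 and 0.99 after pinosylvin and 0.79, 0.75 and 1.10 after resveratrol. It overlapped between GR24 and control and was not called, with -0.22 (SE 0.15, adjusted p = 0.222), but within each experiment GR24 was lower, and with the experiment as a block the adjusted p was 0.00397.

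Against the same control arrays, which all 3 comparisons share, pinosylvin left few proteasome genes called. Of the 45 genes, 1 was higher and 3 were lower, where 8.28% of all tested probes were higher and 8.27% were lower. The median was 0.088, against 0.054 over all tested probes. Without control replicate 3 it was 0.023 against 0.058, without pinosylvin replicate 1 it was 0.052 against 0.058, and with no filter on dim probes 0.088 against 0.11. Thus it did not stay above the median of all probes. The gene that was higher was *Psme4*, with 0.41 (SE 0.099, adjusted p = 0.0181), 1.33-fold above the control. Its call was lost without pinosylvin replicate 1, pinosylvin replicate 2 or control replicate 3 (adjusted p from 0.0544 to 0.0658). The genes that were lower were the inducible ones, *Psmb9* with -0.65 (SE 0.11, adjusted p = 0.00229), *Psmb8* with -0.47 (SE 0.086, adjusted p = 0.00436) and *Psmb10* with -0.31 (SE 0.073, adjusted p = 0.0154). The call of *Psmb10* was lost without pinosylvin replicate 1 or pinosylvin replicate 3 (adjusted p of 0.0516 and 0.0515). Of the 14 constitutive core genes and the 17 genes of the 19S particle, limma called 0, and at an unadjusted p under 0.05 there were 2 in each, all higher. With the experiment as a block, 9 genes were higher and 5 lower of the 45, and over all tested probes 16.3% and 12.3%. The genes that the block added were *Psma4*, *Psmb5*, *Psmb6*, *Psmc1*, *Psmd4*, *Psmd7*, *Psmd12* and *Psmg4*, higher, and *Psmd10* and *Psmg2*, lower, with adjusted p from 0.0156 to 0.0494. *Psmg2* was also called without GR24 replicate 2 or GR24 replicate 3 (adjusted p from 0.0196 to 0.0403), and *Psmd1* of the 19S particle was called higher without control replicate 2 (0.33, adjusted p = 0.0449). The pinosylvin arrays had myotube marker medians of 0.40, 0.36 and 0.035 and cycling marker medians of -1.70, -1.56 and -1.82, and their part was not tested.

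Resveratrol left 8 genes higher and 2 lower of the 45, where 7.99% of all tested probes were higher and 8.99% lower. The number higher was 2 with no filter on dim probes (2.35% of all probes), 2 with only the 6 arrays compared (5% of tested probes), and from 2 to 7 in the fits that lacked 1 array. The median was 0.13, against 0.01 over all tested probes and 0.019 over the named genes. Without control replicate 3 it was 0.088 against 0.019 over all tested probes. The largest increase was that of *Psmd5*, with 0.42 (SE 0.088, adjusted p = 0.00838), 1.34-fold. *Psme4* followed with 0.41 (SE 0.099, adjusted p = 0.0178), and its call was lost without resveratrol replicate 1 or resveratrol replicate 2 (adjusted p of 0.0685 and 0.0666). Signals of *Psmc6*, an ATPase of the 19S base, were 1.49, 1.50 and 1.62 on the control arrays, 1.72, 1.80 and 1.53 with GR24, 1.63, 1.51 and 1.68 with pinosylvin and 1.88, 2.04 and 1.89 with resveratrol. The resveratrol values lay above all other arrays, and the difference from the control was 0.40 (SE 0.088, adjusted p = 0.0108). The others were *Psmd1* (0.33), *Psma1* (0.32), *Psmb6* (0.26), *Psmb1* (0.21) and *Psmg4* (0.21), of which *Psmd1* is named after its value was seen. These calls changed with the arrays used. That of *Psmd1* was kept only without control replicate 2 (otherwise adjusted p from 0.0520 to 0.142). That of *Psma1* was lost without any control array or without resveratrol replicate 2 (0.0503 to 0.108), and that of *Psmb1* without any resveratrol array or without control replicate 1 (0.0509 to 0.0833). That of *Psmb6* was kept only without control replicate 2, GR24 replicate 2, GR24 replicate 3 or pinosylvin replicate 3 (otherwise 0.0510 to 0.125), and that of *Psmg4* only without control replicate 3, GR24 replicate 3 or pinosylvin replicate 3 (otherwise 0.0501 to 0.121). The genes that were lower were *Psmb8* with -0.42 (SE 0.086, adjusted p = 0.00740) and *Psmb10* with -0.32 (SE 0.073, adjusted p = 0.0137), the latter not called without resveratrol replicate 3 (adjusted p = 0.0519). With only the 6 arrays compared neither was called, and *Psmb8* had an adjusted p of 0.0511. *Psmb9* lay below the control without overlap, with -0.35 (SE 0.11, adjusted p = 0.0503), and was not called. It passed with the experiment as a block (adjusted p = 0.00213) and without control replicate 3 (adjusted p = 0.0197).

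With the experiment as a block in the fit, 18 of the 45 genes were higher with resveratrol and 3 were lower, and over all tested probes 14.1% and 13.8%. In the constitutive core the number that were higher went from 3 to 7 of 14, in the 19S particle from 2 to 7 of 17 and in the lid from 0 to 4 of 8, where without the block 1 lid gene had an unadjusted p under 0.05. The genes added as higher were *Psma3*, *Psmb2*, *Psmb3*, *Psmb4*, *Psmd3*, *Psmd4*, *Psmd7*, *Psmd11*, *Psmd12* and *Psmf1*, with adjusted p from 0.00374 to 0.0480. Their differences ranged from 0.14 to 0.32, and *Psmf1* was also called without control replicate 3 (adjusted p = 0.0423), as was *Psma3* (adjusted p = 0.0236). On the resveratrol arrays the myotube marker medians were -0.26, -0.19 and -0.34 and the cycling marker medians -0.97, -0.75 and -1.03, and their part was not tested.

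GR24 was also compared with each stilbene directly, at the same dose and time, to ask whether the groups themselves differed. Against pinosylvin, 30 of the 45 genes were higher with GR24 and 5 were lower, with a median of 0.40, where 29.6% of all tested probes were higher and 26.8% lower, with a median of -0.003. Against resveratrol, 29 were higher and 5 lower, with a median of 0.36, where 27.4% of all tested probes were higher and 23.9% lower, with a median of 0.024. With no filter on dim probes, the median of all probes against resveratrol was 0.24 and that of the 45 genes lay 0.12 above it, where it lay 0.34 above it with the filter. Against pinosylvin 9 of 9 myotube markers were lower with GR24 (median -1.92), against resveratrol 7 of 9 (median -1.54), and all 4 cycling markers were lower against each (medians -1.30 and -2.01), and their part was not tested. The call of *Des* against pinosylvin was lost without pinosylvin replicate 1 or 2 or GR24 replicate 2 (adjusted p from 0.0519 to 0.0537). Among the 45 genes, the differences were largest for the chaperones *Psmd5* (1.13, SE 0.088, adjusted p = 2.03e-06 against pinosylvin) and *Psmd9* (1.12, SE 0.16, adjusted p = 0.000162 against resveratrol). *Psme4* was lower with GR24 than with either stilbene, with -0.91 (SE 0.099, adjusted p = 2.29e-05) and -0.91 (SE 0.099, adjusted p = 2.85e-05). Also lower were *Psmb9* (-0.39, adjusted p = 0.00964 and -0.70, adjusted p = 0.000318), *Psmb8* (-0.24, adjusted p = 0.0347 and -0.28, adjusted p = 0.0174) and *Psmg4* (-0.32, adjusted p = 0.00101 and -0.36, adjusted p = 0.000504). The call of *Psmb8* against pinosylvin was lost without any GR24 array, pinosylvin replicate 1 or pinosylvin replicate 2 (adjusted p from 0.0552 to 0.0996), and against resveratrol without resveratrol replicate 1, resveratrol replicate 2 or GR24 replicate 3 (0.0530 to 0.0645). *Psmb10* was higher with GR24 than with either, by 0.42 (SE 0.073, adjusted p = 0.000617) and 0.42 (SE 0.073, adjusted p = 0.000634). The remaining genes that were lower with GR24 were *Psma4* against pinosylvin (-0.29, adjusted p = 0.0123) and *Psmc6* against resveratrol (-0.25, adjusted p = 0.0328). The call of *Psma4* was lost without pinosylvin replicate 2 (adjusted p = 0.0517) and that of *Psmc6* without GR24 replicate 1 or 3 or resveratrol replicate 2 or 3 (0.0504 to 0.119). With the experiment as a block, *Psmb5*, *Psmd8* and *Psmd13* were also higher and *Psmc3* lower with GR24 than with pinosylvin (adjusted p from 0.000824 to 0.0191), and *Psmc1*, *Psmd1* and *Psme3* were higher and *Psmc3* and *Psmd10* lower than with resveratrol (adjusted p from 0.00553 to 0.0384).

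Pinosylvin and resveratrol, which differ by a hydroxyl group, were also compared with each other. This was 1 of 6 pairwise comparisons between the 4 groups, each adjusted over its own tested probes. Of the 45 genes, 1 was higher and 2 were lower with pinosylvin, where 7.68% of all tested probes were higher and 6.85% lower, and the medians were -0.052 and 0.022. Without pinosylvin replicate 1 these medians were -0.10 and 0.025, and without pinosylvin replicate 3 they were -0.03 and 0.015. Of the myotube markers 6 of 9 were higher with pinosylvin (8 with the experiment as a block, median 0.40) and all 4 cycling markers were lower (median -0.68), and their part was not tested. Of these marker calls, that of *Cav3* (0.31, adjusted p = 0.0475) was lost without 7 of the 12 arrays left out in turn (adjusted p from 0.0595 to 0.156). The proteasome gene that was higher was *Psma4*, with 0.34 (SE 0.082, adjusted p = 0.0207) and a 95% interval of 0.16 to 0.52. *Psmd5* was lower, with -0.55 (SE 0.088, adjusted p = 0.00249) and an interval of -0.75 to -0.35, and so was *Psmc6*, with -0.33 (SE 0.088, adjusted p = 0.0321) and an interval of -0.52 to -0.13. Of these, *Psmd5* kept its call without any 1 array, while that of *Psma4* was lost without pinosylvin replicate 1 or 2 or resveratrol replicate 2 or 3, and that of *Psmc6* without these or resveratrol replicate 1 (adjusted p from 0.0556 to 0.121). The call of *Psma4* was also lost with no filter on dim probes (adjusted p = 0.0811). The number lower was 1 with no filter and with only the 6 arrays compared, 5 with quantile normalization, 6 with normexp and quantile normalization, 6 with the deposited table and 7 with the slide as a block. With the experiment as a block, 2 genes were higher and 4 lower, and over all tested probes 14.4% and 11.6%. The block added *Psmb5* (0.21, adjusted p = 0.248, with the block 0.00718), *Psmb9* (-0.30, adjusted p = 0.0921, with the block 0.00509) and *Psmg2* (-0.24, adjusted p = 0.0595, with the block 0.0269), the last also called without GR24 replicate 2 or GR24 replicate 3 (adjusted p from 0.0241 to 0.0479). For other genes a difference was not detected, which does not show that the compounds act alike. The interval was -0.22 to 0.22 for *Psme4*, -0.24 to 0.15 for *Psmb8*, -0.16 to 0.17 for *Psmb10* and -0.28 to 0.28 for *Psmb7*.

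Genes that work with the proteasome were taken from lists by role. Beside their counts, 36.1% of the named genes were higher and 26.7% lower after GR24, with a median of 0.078, 8.59% and 9.77% with pinosylvin, and 8.63% and 10.3% with resveratrol. Proteins that sit on the particle had 5 tested genes of 9 listed, and after GR24 4 were higher and 1 was lower, with a median of 0.64. *Adrm1*, which encodes a ubiquitin receptor of the 19S particle, had signals of -1.21, -1.14 and -0.64 on the control arrays, -0.18, 0.13 and 0.20 with GR24, -1.10, -1.02 and -0.66 with pinosylvin and -0.84, -0.43 and -0.35 with resveratrol. The GR24 values lay above the control values without overlap, 2.06-fold, in log2 1.04 (SE 0.19, adjusted p = 0.000812). The others that were higher were *Txnl1*, a thioredoxin-like partner (0.67, adjusted p = 3.29e-05), the deubiquitinase *Usp14* (0.64, adjusted p = 0.000121) and *Akirin2*, which takes part in nuclear import of proteasomes (0.48, adjusted p = 0.000179). *Sem1*, which encodes a small lid subunit, had signals of 6.06, 6.30 and 5.87 in the control myotubes, 5.46, 5.42 and 5.36 after GR24, 6.16, 6.28 and 6.17 after pinosylvin and 6.05, 5.96 and 5.85 after resveratrol. It lay below the control without overlap, with -0.67 (SE 0.10, adjusted p = 0.000263), where the called lid genes with the prefix were higher. With either stilbene limma called 0 of the 5, and 1 was higher at an unadjusted p under 0.05 with each. With the experiment as a block, *Adrm1* was higher with resveratrol (0.46, adjusted p = 0.140, with the block 0.00665, without control replicate 3 adjusted p = 0.0433), and it was lower with pinosylvin than with resveratrol (-0.39, with the block 0.0161).

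Shuttle proteins and the segregase Vcp deliver substrates to the proteasome. Of 11 tested genes of 12 listed, 7 were higher after GR24, with a median of 0.32. *Zfand2a*, an arsenite-inducible gene whose product binds the 19S particle, had signals of 3.33, 3.28 and 3.14 on the control arrays, 5.64, 5.74 and 5.38 with GR24, 3.72, 3.60 and 3.52 with pinosylvin and 4.31, 4.37 and 4.15 with resveratrol. All GR24 values lay above all others, 5.04-fold above the control, with 2.33 (SE 0.11, adjusted p = 3.06e-08), and resveratrol lay between GR24 and the other groups (1.03, SE 0.11, adjusted p = 0.000134). *Vcp* (0.55, adjusted p = 0.000608) and its cofactors *Nploc4* (0.91, adjusted p = 2.91e-06) and *Ufd1* (0.83, adjusted p = 0.000242) were higher as well, as were *Rad23b*, *Ubqln2* and *Ubqln4* (0.30 to 0.32), the last not called without control replicate 1 or 3 or GR24 replicate 1 or 2 (adjusted p from 0.0568 to 0.104). *Ubqln1* has 2 probes, of which the one with the higher signal was not called (0.095, adjusted p = 0.376) and the other was higher (0.50, adjusted p = 0.00174). With pinosylvin 3 were higher, *Midn* (0.57, adjusted p = 0.00386), *Zfand2a* (0.36, adjusted p = 0.0411) and *Vcp* (0.31, adjusted p = 0.0498), and with resveratrol *Zfand2a*, *Nploc4* (0.28, adjusted p = 0.0286) and *Ubqln2* (0.25, adjusted p = 0.0233). The pinosylvin calls of *Vcp* and *Zfand2a* were lost without 10 and 9 of the 12 arrays left out in turn, with adjusted p up to 0.162 and 0.137, and the resveratrol calls of *Nploc4* and *Ubqln2* without 5 and 4, with adjusted p up to 0.103 and 0.0820. *Midn* and *Zfand2a* differed between the stilbenes, with 0.54 (SE 0.10, adjusted p = 0.00589) and -0.66 (SE 0.11, adjusted p = 0.00244), pinosylvin minus resveratrol. With the experiment as a block, *Ubqln4* was also higher with pinosylvin (adjusted p = 0.0332) and *Vcp* with resveratrol (adjusted p = 0.00429).

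The genes of ubiquitin itself and of the enzymes that activate it were also taken as a list. Of 4 genes given here, all tested, 2 were lower after GR24 and limma called 0 higher, with 0 higher at an unadjusted p under 0.05, and the median was -0.26. They were *Ubb*, a polyubiquitin gene, with -0.46 (SE 0.061, adjusted p = 9.25e-05), and *Uba1*, the main activating enzyme, with -0.31 (SE 0.073, adjusted p = 0.00440). In the same fit the other probes of *Ubb* were lower as well, from -0.57 to -0.35 (adjusted p from 8.28e-05 to 0.00368). The call of *Ubb* was lost with the deposited table and with normexp and quantile normalization (adjusted p up to 0.0781), and with the same 2 alternatives the ubiquitin gene *Rps27a*, at -0.027 (adjusted p = 0.828) not called otherwise, was called higher after GR24 (0.20 in each, adjusted p of 0.0177 with normexp and quantile normalization and 0.0264 with the table). With either stilbene limma called 0 of the 4 in either direction, and at an unadjusted p under 0.05 there were 1 higher and 1 lower with pinosylvin and 0 with resveratrol. With pinosylvin *Rps27a* was called without control replicate 2 (0.33, adjusted p = 0.0125), and 1 of its 3 further probes was higher (0.25, adjusted p = 0.0428), where the probe with the highest signal was not called (0.22, adjusted p = 0.134). With the block *Ubb*, *Rps27a* and *Uba1* were higher with pinosylvin than with resveratrol (adjusted p from 0.0334 to 0.0419).

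Transcription factors that act on proteasome genes, with the proteins that process or restrain them, had 9 tested genes of 10 listed, *Nfe2l1* having no probe. After GR24 4 of the 9 were higher, with a median of 0.14, where 36.1% of the named genes were higher and their median was 0.078. *Nfe2l2* had signals of 4.01, 4.05 and 3.99 on the control arrays, 4.62, 4.82 and 4.37 with GR24, 4.21, 4.00 and 3.95 with pinosylvin and 4.23, 4.32 and 4.11 with resveratrol. GR24 lay above the control without overlap, with 0.59 (SE 0.11, adjusted p = 0.00123). *Keap1*, whose product marks the Nrf2 protein for degradation, had signals of -0.62, -0.58 and -0.44 in the control myotubes, 0.68, 0.74 and 0.71 after GR24, -0.33, -0.28 and -0.23 after pinosylvin and 0.088, 0.20 and 0.17 after resveratrol. Here GR24, then resveratrol, then pinosylvin lay above the control with no overlap between groups, with differences of 1.25 (SE 0.066, adjusted p = 9.29e-08), 0.70 (SE 0.066, adjusted p = 8.12e-05) and 0.27 (SE 0.066, adjusted p = 0.0197). The small Maf genes *Maff* (1.81, SE 0.078, adjusted p = 2.07e-08) and *Mafg* (0.62, SE 0.15, adjusted p = 0.00556), whose products pair with these factors, were higher after GR24, and *Maff* was also higher with resveratrol (0.55, SE 0.078, adjusted p = 0.000953). The call of *Keap1* with pinosylvin was lost without control replicate 1 or 2 or pinosylvin replicate 2 or 3 (adjusted p from 0.0578 to 0.0778). *Keap1* and *Maff* were lower with pinosylvin than with resveratrol (-0.43, adjusted p = 0.00200 and -0.30, adjusted p = 0.0281), the latter not called without pinosylvin replicate 1 or 2 or resveratrol replicate 1 or 3 (adjusted p from 0.0777 to 0.0977). *Nfyb*, a subunit of the factor that binds CCAAT, was lower with pinosylvin (-0.47, SE 0.11, adjusted p = 0.0122, and 0.0503 without pinosylvin replicate 2), but its other probe was not called (-0.14, adjusted p = 0.904). With the block the number that were higher with pinosylvin went from 1 to 3, by *Maff* (adjusted p = 0.0380) and *Mafk* (adjusted p = 0.00708). With resveratrol the block added *Mafg*, higher (adjusted p = 0.0417), and *Nfyb*, lower (adjusted p = 0.0476).

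Genes that induce the inducible subunits or work with them in antigen presentation had 5 tested genes of 8 given here, with *Irf8* above background on 0 arrays. After GR24 1 was higher and limma called 0 lower, with 0 lower at an unadjusted p under 0.05, and the median was -0.15. *Tapbp*, which encodes the peptide loading factor tapasin, was the gene that was higher, with 1.29 (SE 0.14, adjusted p = 2.39e-05). The transporter genes *Tap1* (-0.15, adjusted p = 0.418) and *Tap2* (-0.21, adjusted p = 0.218) were not called after GR24, but both were lower with the experiment as a block (adjusted p of 0.0378 and 0.0440). With pinosylvin *Irf1*, a factor of the interferon response, was lower (-0.38, SE 0.073, adjusted p = 0.00520), and it also differed between the stilbenes (-0.42, SE 0.073, adjusted p = 0.00378, pinosylvin minus resveratrol). With resveratrol limma called 0 of the 5, also 0 at an unadjusted p under 0.05, while the other probe of *Tap1* was lower (-0.28, adjusted p = 0.0175). With the block *Tapbp* was higher (adjusted p = 0.0318) and the first probe of *Tap1* lower (adjusted p = 0.0131). In the RefSeq annotation *Psmb8* and *Psmb9* lie side by side with the transporters, in the order *Tap2*, *Psmb8*, *Tap1* and *Psmb9*, and *Psme1* and *Psme2* are separated by *Emc9* alone.

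**Figure D3:**
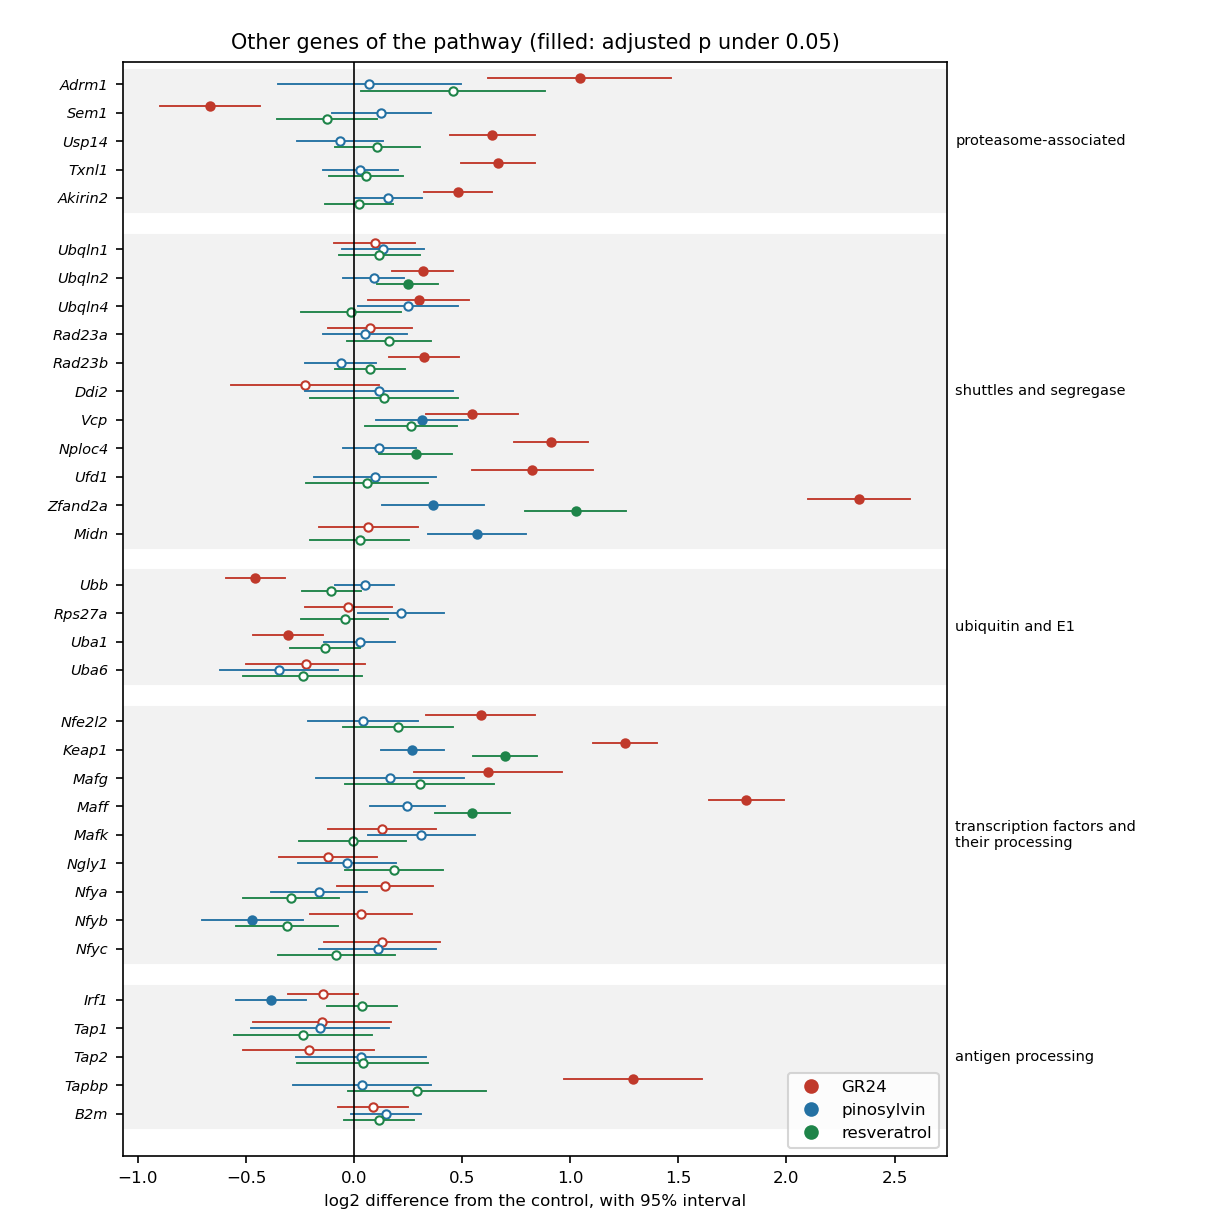
Log2 difference from the control (horizontal axis) for genes that work with the proteasome, by list, after GR24 (red), pinosylvin (blue) or resveratrol (green). Points are differences between group means of 3 arrays, lines are 95% confidence intervals, and filled points have an adjusted p under 0.05. The GR24 points of Zfand2a (2.33) and Maff (1.81) lie farthest to the right and that of Sem1 (-0.67) farthest to the left.

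The members that are not subunits are given apart. *Psmc3ip*, which encodes a meiotic recombination factor, was lower after GR24 (-0.66, SE 0.061, adjusted p = 5.96e-06), pinosylvin (-0.29, SE 0.061, adjusted p = 0.00872) and resveratrol (-0.22, SE 0.061, adjusted p = 0.0313). The last was not called without any 1 control array, any 1 resveratrol array or GR24 replicate 1 (adjusted p from 0.0503 to 0.0996). *Psme3ip1* was not called after GR24 (0.13, SE 0.089, adjusted p = 0.262, with the experiment as a block 0.0402). For *Psmb6*, *Psmc1* and *Pomp*, which have 2 tested probes, the values above are those of the probe with the higher mean signal. Their other probes gave GR24 differences of 0.67, 0.30 and 0.084, with the same calls after GR24. For the other probe of *Psmb6*, the difference between GR24 and pinosylvin of 0.46 was not called (adjusted p = 0.0533), where that of the first probe was (0.46, adjusted p = 0.000363).

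Because most of the core and 19S genes were higher together after GR24, their promoters were searched for motifs of the factors known to act on these genes. Of the 45 genes, 41 had an entry among 33469 RefSeq promoters of the build GRCr8, from 250 bases before to 50 bases after the gene's start, and *Psma7*, *Psmd6*, *Psmd12* and *Psmd14* had none. The core of the antioxidant response element, TGACNNNGC, was found on either strand in 8 of the 41 (19.5%), and in 12.1% of all promoters. It was in 7 of the 28 that were higher after GR24, namely *Psma3*, *Psmb2*, *Psmb5*, *Psmb6*, *Psmd1*, *Psmd3* and *Psmd9*, and in 1 of the other 13, *Psme4*. The shared core of AP-1 and NF-E2 sites, TGAGTCA, was in 1 of 41, *Psmc6*, and in 4.63% of all promoters. CCAAT, the box bound by NF-Y, was in 20 of 41 (48.8%), in 15 of the 28 and 5 of the other 13, and in 37.5% of all promoters. The interferon response core GAAANNGAA was in 10 of 41 (24.4%), in 5 of the 28 and 5 of the other 13, and in 9.71% of all promoters. Motifs were searched on both strands, and they can overlap. A stretch that reads TGACTCA on 1 strand, the reverse complement of TGAGTCA, may go on to complete TGACNNNGC. A match is a description of letters, not a site that was shown to be bound.

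The promoters shown are those of the 6 genes with the largest GR24 differences in either direction among the 8 that hold TGACNNNGC, followed by those of *Psmb8* and *Psmb9*, which were lower and hold none. They are from RefSeq, build GRCr8, 5′ to 3′ on the strand of the gene. Positions are chr12:39018215-39018514 (minus strand) for *Psmd9*, chr10:84139688-84139987 (plus strand) for *Psmd3*, chr10:55737638-55737937 (plus strand) for *Psmb6*, chr6:95219499-95219798 (plus strand) for *Psma3*, chr9:94157721-94158020 (plus strand) for *Psmd1*, chr14:108706393-108706692 (plus strand) for *Psme4*, chr20:4656982-4657281 (minus strand) for *Psmb8* and chr20:4668750-4669049 (plus strand) for *Psmb9*. Capitals mark TGACNNNGC or its reverse complement in the first 6, and in *Psmb8* and *Psmb9* each match to CCAAT or GAAANNGAA, which here are on the reverse strand.
Psmd9: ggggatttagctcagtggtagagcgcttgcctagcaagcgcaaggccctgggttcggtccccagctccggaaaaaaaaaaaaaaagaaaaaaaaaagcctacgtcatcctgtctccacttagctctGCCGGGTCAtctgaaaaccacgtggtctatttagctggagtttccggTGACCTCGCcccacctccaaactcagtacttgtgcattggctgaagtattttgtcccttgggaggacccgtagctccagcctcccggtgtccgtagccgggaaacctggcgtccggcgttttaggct
Psmd3: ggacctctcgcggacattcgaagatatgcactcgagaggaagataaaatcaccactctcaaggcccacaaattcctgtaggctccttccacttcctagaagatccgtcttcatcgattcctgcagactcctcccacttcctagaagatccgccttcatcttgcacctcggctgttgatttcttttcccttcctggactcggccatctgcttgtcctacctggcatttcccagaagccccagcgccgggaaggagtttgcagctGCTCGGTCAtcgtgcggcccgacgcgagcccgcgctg
Psmb6: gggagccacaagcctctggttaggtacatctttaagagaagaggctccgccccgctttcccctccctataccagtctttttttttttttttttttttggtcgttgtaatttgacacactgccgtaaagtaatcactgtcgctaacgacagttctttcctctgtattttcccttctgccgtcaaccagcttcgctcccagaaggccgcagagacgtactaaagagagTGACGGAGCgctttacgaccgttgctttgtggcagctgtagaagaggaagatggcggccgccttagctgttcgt
Psma3: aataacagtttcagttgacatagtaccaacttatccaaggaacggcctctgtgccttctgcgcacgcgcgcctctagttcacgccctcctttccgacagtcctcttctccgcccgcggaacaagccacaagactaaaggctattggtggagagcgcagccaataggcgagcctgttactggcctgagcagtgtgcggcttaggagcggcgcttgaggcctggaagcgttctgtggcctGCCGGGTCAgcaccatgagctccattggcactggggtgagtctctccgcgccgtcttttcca
Psmd1: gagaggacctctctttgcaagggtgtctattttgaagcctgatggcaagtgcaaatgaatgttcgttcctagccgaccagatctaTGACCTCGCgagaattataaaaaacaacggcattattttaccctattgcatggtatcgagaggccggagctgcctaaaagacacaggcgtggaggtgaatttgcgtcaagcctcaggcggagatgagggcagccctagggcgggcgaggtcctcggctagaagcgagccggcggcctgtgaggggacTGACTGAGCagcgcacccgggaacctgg
Psme4: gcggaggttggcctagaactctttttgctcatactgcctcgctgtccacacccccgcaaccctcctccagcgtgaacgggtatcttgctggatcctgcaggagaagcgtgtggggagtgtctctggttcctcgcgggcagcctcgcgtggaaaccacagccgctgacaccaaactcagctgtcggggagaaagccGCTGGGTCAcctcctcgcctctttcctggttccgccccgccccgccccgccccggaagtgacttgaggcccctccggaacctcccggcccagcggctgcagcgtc
Psmb8: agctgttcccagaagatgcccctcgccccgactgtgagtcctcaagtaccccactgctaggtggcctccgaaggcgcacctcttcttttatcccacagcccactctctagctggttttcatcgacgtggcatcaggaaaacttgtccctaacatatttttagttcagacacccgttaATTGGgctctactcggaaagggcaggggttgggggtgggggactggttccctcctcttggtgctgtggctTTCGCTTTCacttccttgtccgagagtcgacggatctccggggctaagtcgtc
Psmb9: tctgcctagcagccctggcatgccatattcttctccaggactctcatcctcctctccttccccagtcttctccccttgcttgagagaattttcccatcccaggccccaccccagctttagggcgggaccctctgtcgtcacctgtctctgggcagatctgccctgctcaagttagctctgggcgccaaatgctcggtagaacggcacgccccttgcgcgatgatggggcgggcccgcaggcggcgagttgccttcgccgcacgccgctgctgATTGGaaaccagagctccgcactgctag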

How the data were processed

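RNA of 12 cultures of L6 myotubes, 3 for each of 4 groups, had been hybridized to Agilent 1-colour arrays. Per the file headers, the processed signal is an intensity that the authors' scanner software, Agilent Feature Extraction 12.0.0.7, corrected for background and for trends across the array, with no scaling between arrays. The authors also deposited a table of log2 values made with limma, whose correction, scaling and filter are not stated. Its columns have medians from 9.21 to 9.25, and it correlated at 0.9994 or more with the log2 median signal of each array.

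Spots marked as outliers were left out, log2 intensities were averaged per probe, and the 75th percentile over probes was subtracted. A probe was tested if, in some group, each of the 3 arrays had it well above background (24279 of 45598). Each of 6 pairwise differences between the 4 groups was tested with limma 3.58.1 (R 4.3.3, data.table version 1.17.8) under moderated variances and adjusted by Benjamini-Hochberg over the tested probes. Figures were drawn with matplotlib 3.10.9 in Python 3.11.15. Gene names came from the RefSeq accessions of the probes, which named 21109 probes (46.29%), and a gene with several tested probes is given by that with the highest mean signal. No p is given for a list or a median over genes.

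Values on every array are given for the gene with the largest and that with the smallest GR24 difference in each subcomplex, for the active-site, activator, inhibitor and *Pomp* genes, and for the 3 largest called differences with each stilbene. They are also given for *Psmc6*, whose called difference with resveratrol comes next in size. The members and the lists of related and marker genes were chosen with earlier results of these data known. Of the related genes, 3 are not reported here, and the list counts leave them out. The labels give the arrays replicate numbers, per the study 1 for each experiment. Deviations from the group means correlated between same-numbered arrays at 0.191 to 0.744 (18 pairs, median 0.425) and between others at a median of -0.452 (36 pairs), and 10 of 12 arrays correlated best with 1 of their own number, so that a fit with the replicate as a block was also made. The alternatives were other background corrections (normexp on the median signals, as mean signals are not in the files), scalings, filters, blocks, variance settings and adjustments, and each array left out in turn. Protein levels and proteasome activity were not measured.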

Additional observations from a re-analysis of the deposited data

How the results depend on the processing

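Over 29 alternatives, 12 of which left out 1 array, 33 of the 37 calls after GR24 among the 47 genes were kept in all, 2 of 5 with pinosylvin and 2 of 11 with resveratrol, and no difference of these genes turned its direction past the threshold. Against pinosylvin 32 of 36 GR24 calls were kept, against resveratrol 25 of 35, and between the stilbenes 1 of 3. Scaling by the 75th percentile over spots, alone and with the replicate block, was chosen after seeing the data.

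With arrays left out in turn, the numbers called higher and lower ranged, after GR24, from 29 to 33 and from 3 to 4, with pinosylvin from 0 to 2 and from 2 to 4, and with resveratrol from 2 to 7 and from 1 to 3. For GR24 against pinosylvin they ranged from 28 to 30 and from 3 to 5, for GR24 against resveratrol from 23 to 31 and from 3 to 5, and for pinosylvin against resveratrol from 0 to 1 and from 1 to 3. The group with an array left out keeps 2, and its spread is pooled with the others.

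For pinosylvin minus control, the number higher (1) was 0 with no filter on dim probes, which ended the call of *Psme4* (adjusted p = 0.0654), 0 with only the 6 arrays compared, 2 with normexp and the 75th percentile, 2 with normexp and quantile normalization, 2 with the deposited series table, 2 with 1 adjustment over the 6 comparisons together, 4 with the 75th percentile over spots, and 9 with the replicate block, 9 with the slide as a block and 9 with the percentile over spots and the replicate block. The number lower (3) was 2 with no filter on dim probes, 5 with the replicate block and 5 with the slide block. For resveratrol minus control, the number higher (8) was 2 with no filter on dim probes, 2 with only the 6 arrays compared, 18 with the replicate block, 19 with the slide block and 16 with the percentile over spots and the replicate block. The number lower (2) was 1 with no filter and 0 with only the 6 arrays. Its highest value was 3, reached for example with normexp and the 75th percentile and with the replicate block. For GR24 minus resveratrol, the number lower (5) was 3 with no filter.

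For pinosylvin minus resveratrol, the number higher (1) was 0 with no filter, which ended the call of *Psma4* (adjusted p = 0.0811), 0 with only the 6 arrays, 2 with the replicate block, 2 with the slide block and 3 with the percentile over spots and the replicate block. The number lower (2) was 4 with normexp and the 75th percentile, 6 with normexp and quantile normalization, 5 with quantile normalization, 6 with the deposited series table, 1 with no filter, 5 with the 75th percentile over probes above background on all 12 arrays, 1 with only the 6 arrays, 4 with the replicate block, 7 with the slide block, 4 with the joint adjustment and 4 with the percentile over spots and the replicate block. Fits with only the 6 arrays have fewer arrays to estimate the spread. The other causes were not tested. The replicate block changed no other call given in the report.

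Among the related and marker genes, differences of 1 gene reversed (main values in brackets), and the cause was not tested. For *Rps27a*, GR24 minus control (-0.027) was 0.20 with normexp and quantile normalization (adjusted p = 0.0177) and 0.20 with the deposited series table (adjusted p = 0.0264), so that it was called higher in each, and GR24 minus pinosylvin (-0.25) was 0.10, 0.072 and 0.097 with normexp and quantile normalization, quantile normalization and the deposited table.

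The median over all tested probes for GR24 minus control moved from 0.027 to 0.11 with quantile normalization, to 0.13 with the percentile over spots and to 0.12 with no filter. Relative to it, the median of the 45 genes was 0.43, and 0.46, 0.43 and 0.34 with these. With no filter, the relative median also moved in other comparisons, from 0.34 to 0.12 for GR24 minus resveratrol, from 0.12 to 0.27 for resveratrol minus control, from 0.033 to -0.021 for pinosylvin minus control and from -0.075 to -0.21 for pinosylvin minus resveratrol. Without control replicate 3 it was -0.035 for pinosylvin minus control and 0.069 for resveratrol minus control. Without pinosylvin replicate 1 it was -0.006 for pinosylvin minus control. Depth was no limit for the members, which were above background on every array, but dim probes, such as that of *Psma8*, could not be compared.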
